A study of Homo sapiens with 12 samples.

Results

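The response of HK-2 cells to recombinant S100A9 was described across all genes, from 6 of the 12 libraries of the study. HK-2 is an immortalised line of human proximal tubule epithelium. The cells, labelled wild type, were grown in DMEM with fetal bovine serum. The 3 S100A9 libraries came from cells given recombinant S100A9 for 48 h at 5 mg/mL, a dose printed as the labels give it, whose unit could not be checked. The 3 PBS libraries came from cells in medium with a corresponding amount of phosphate-buffered saline. The other 6 libraries came from cells given recombinant S100A8 or recombinant S100A8/S100A9 and entered the estimate of spread. Nothing in the labels tells whether the replicates were separate cultures, and the p-values therefore cover the spread between these libraries, which may be technical. Of 20286 genes listed, 13512 had enough counts to be tested.

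S100A9 is a small calcium-binding protein that neutrophils and monocytes release in inflamed tissue, where it signals to neighbouring cells through receptors that include TLR4 and RAGE, the product of AGER. Both receptors activate NF-kB, a family of transcription factors held in the cytoplasm by inhibitors such as the product of NFKBIA. In tubule cells NF-kB induces cytokines, acute-phase proteins and also genes that restrain it or protect the cell, such as SOD2. These cells had no detected transcript of the added protein: the counts of S100A9, and of S100A8, were 0 in each of the 12 libraries.

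Library totals were 17153820, 19541684 and 18231910 counts in the S100A9 libraries, against 17096008, 15882193 and 17593989 in the PBS libraries. A count of 0 allowed up to 3 counts, which is at most 0.189 CPM (counts scaled to library size) in any of them, counting error only. TLR4 was at 2.22, 2.73 and 3.02 CPM after S100A9, against 2.33, 2.51 and 3.34 CPM in PBS. AGER was at 1.87, 3.19 and 2.36 CPM after S100A9, against 2.86, 2.19 and 2.32 CPM in PBS. The groups overlapped for both receptors. Of the 18 tubule markers, 11 were at 1 CPM or more, among them PAX8, KRT8, KRT18, CDH2, EPCAM and the enzymes GGT1 and MIOX. GGT1 averaged 33.9 CPM after S100A9 and 30.7 CPM in PBS, and MIOX 18.6 CPM after S100A9 and 18.9 CPM in PBS. The endocytic receptors LRP2 and CUBN, the water channel AQP1, the peptidase ANPEP and the transporters SLC34A1 and SLC5A2, which mark differentiated proximal tubule, were each under 1 CPM. Leukocyte markers summed to between 83.6 and 104 CPM after S100A9 and between 87.6 and 95.2 CPM in PBS, most of it CD68, and 7 of the 18 were at 0 in all 6 libraries, TYROBP and MS4A1 among them. Fibroblast and endothelial markers summed to between 88.7 and 106 CPM after S100A9 and between 107 and 112 CPM in PBS, most of it LUM, and PDGFRA and EMCN were at 0.

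After S100A9, 20 genes passed edgeR's quasi-likelihood test at a Benjamini-Hochberg adjusted p of 0.05, and 19 of them were higher. That is 0.141% of the genes tested for higher calls and 0.0074% for the 1 lower call. At an unadjusted p under 0.05 there were 791 genes. Of the 20 genes, 9 were cytokine or acute-phase genes and 11 lay outside those lists. The 9 were LCN2, SAA1, SAA2, C3, IL6, CXCL8, CSF2, CCL20 and CXCL2, with log2 fold changes of 1.04 to 3.15. SAA1, SAA2 and CCL20 were under 1 CPM in every PBS library. SAA2 was at 0.175, 0.313 and 0.283 CPM there, near the level that a count of 0 allowed. IL6 also lay above every control after S100A8 (0.36) and S100A8/S100A9 (0.42), and CXCL2 after S100A8 (0.42). SAA2 after S100A8 and CCL20 after S100A8/S100A9 lay below every control. SAA1 and SAA2 are near-identical genes between which reads could be split, and their summed counts gave a log2 fold change of 2.71 (adjusted p = 1.4e-06). LCN2 varied most between the treated libraries, at 36.0, 73.8 and 54.9 CPM after S100A9, against 4.03, 8.65 and 6.06 CPM in PBS. Its groups did not overlap, but replicate 2 was the highest library in both.

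Among the 11 other genes, SOD2, the mitochondrial superoxide dismutase, had the smallest p of all genes. It was at 492, 537 and 507 CPM after S100A9, against 294, 286 and 284 CPM in PBS. The lowest treated library was far above the highest control, and the log2 fold change was 0.83 (SE 0.04, adjusted p = 2.1e-13). The symbol also stands for another ID, which was under 1 CPM and did not pass. PDZK1IP1, a small membrane protein of the proximal tubule that binds PDZ scaffold proteins, was at 45.7, 54.8 and 52.6 CPM after S100A9, against 32.0, 32.5 and 32.4 CPM in PBS. The PBS libraries were nearly equal and all S100A9 libraries lay above them (log2 fold change 0.66, SE 0.07, adjusted p = 1.7e-06).

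ZC3H12A encodes an endoribonuclease that degrades cytokine mRNAs, IL6 mRNA included. It was at 13.6, 14.9 and 13.8 CPM after S100A9, against 8.64, 9.91 and 9.18 CPM in PBS (log2 fold change 0.61, SE 0.10, adjusted p = 0.0044). ZC3H12A also lay above every control after S100A8 (log2 fold change 0.12). Its relative ZC3H12C was at 72.9, 70.6 and 75.6 CPM after S100A9, against 59.3, 59.7 and 60.9 CPM in PBS (log2 fold change 0.28, SE 0.05, adjusted p = 0.016). For both genes the groups did not overlap. The cytokine mRNA decay list that holds them had 2 of 26 members above every control (7.69%, beside 6.25% of all genes) and 2 below (7.69%, beside 5.77%), with a median log2 fold change of -0.01. NFKBIA, the NF-kB inhibitor, was at 54.0, 48.1 and 49.8 CPM after S100A9, against 41.3, 38.7 and 43.0 CPM in PBS (log2 fold change 0.30, SE 0.06, adjusted p = 0.043). After S100A8/S100A9 it also lay above every control (log2 fold change 0.175).

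ITGA1, the alpha subunit of a collagen-binding integrin, was at 38.7, 37.9 and 41.5 CPM after S100A9, against 31.4, 26.96 and 29.9 CPM in PBS (log2 fold change 0.42, SE 0.07, adjusted p = 0.0028). The integrin list had 2 of 17 members above every control (11.8%) and 1 below, with a median of -0.02. WWC1, a scaffold upstream in the Hippo pathway, was at 223, 220 and 228 CPM after S100A9, against 197, 191 and 194 CPM in PBS. Its log2 fold change of 0.21 (SE 0.04, adjusted p = 0.0091) was the smallest among the higher calls. After S100A8/S100A9 WWC1 also lay above every control (log2 fold change 0.08). The Hippo list had 3 of 35 members above every control (8.57%) and 1 below, with a median of 0.00. ELF3, an ETS factor of epithelia, was at 50.6, 51.2 and 54.5 CPM after S100A9, against 43.7, 36.7 and 44.2 CPM in PBS (log2 fold change 0.32, SE 0.07, adjusted p = 0.028). CLEC4E, a lectin receptor best known on macrophages, was at 8.37, 6.90 and 8.84 CPM after S100A9, against 4.90, 5.52 and 4.08 CPM in PBS (log2 fold change 0.73, SE 0.15, adjusted p = 0.047). Of the leukocyte markers, 7 of 18 were at 0, while CD68 averaged 89.8 CPM after S100A9 and 86.5 CPM in PBS, and CSF1R 2.14 CPM after S100A9 and 2.65 CPM in PBS. Their part in the CLEC4E result was not tested. MT2A, a metallothionein, was at 522, 572 and 534 CPM after S100A9, against 415, 423 and 487 CPM in PBS (log2 fold change 0.30, SE 0.05, adjusted p = 0.012). PBS replicate 3 was the control nearest to the treated libraries, and with the replicate number as a block the adjusted p of MT2A was 0.051.

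F2R, the main thrombin receptor, was the only gene called lower. It was at 207, 201 and 218 CPM after S100A9, against 237, 247 and 233 CPM in PBS, which did not overlap (log2 fold change -0.20, SE 0.04, adjusted p = 0.034). Of the 20 genes in the coagulation, thrombin receptor and plasminogen list, 4 lay below every control and 0 above, beside 5.77% and 6.25% of all genes. The other 3 were SERPINE2, a thrombin inhibitor, and GAS6 and PROS1, the vitamin K-dependent ligands of TAM receptors, at log2 fold changes of -0.14, -0.15 and -0.07. The list's median log2 fold change was -0.04, against -0.00 over all genes.

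The blocked fit called 36 genes higher (0.266%) and 6 lower (0.0444%). It kept F2R and all of the higher calls except MT2A. Of the genes it added, SLCO4A1, SDC4 and NID2 had the smallest adjusted p in the blocked fit (2.8e-05, 3.6e-05 and 0.00058), all higher. SLCO4A1 and NID2 overlapped between the groups, with unadjusted p of 0.17 and 0.16 in the fit without the block. The block can thus call genes whose groups overlap. Others it added on the higher side were FTH1, NFE2L1, NR3C2, DRAM1, EPHB2 and HDGF. Among those it added on the lower side were CYP1A1, CDH6, KRT7 and SLC4A4. Leaving out 1 library at a time, 9 genes kept their call every time: SOD2, PDZK1IP1, IL6, CXCL8, CSF2, SAA1, SAA2, CCL20 and C3. ZC3H12A kept it in 5 of the 6 fits, lost without PBS replicate 1. ITGA1 and WWC1 kept it in 4, lost without PBS replicate 2 or S100A9 replicate 3, and LCN2 in 4, lost without PBS replicate 1 or 3. F2R, NFKBIA, MT2A, ZC3H12C and CXCL2 kept it in 2, and ELF3 and CLEC4E in 1. In number, 9 calls were lost without PBS replicate 1, 9 without PBS replicate 2, 3 without PBS replicate 3, 5 without S100A9 replicate 1, 3 without S100A9 replicate 2 and 8 without S100A9 replicate 3. ELF3 kept its call only without PBS replicate 3 and CLEC4E only without S100A9 replicate 2.

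**Figure D1:**
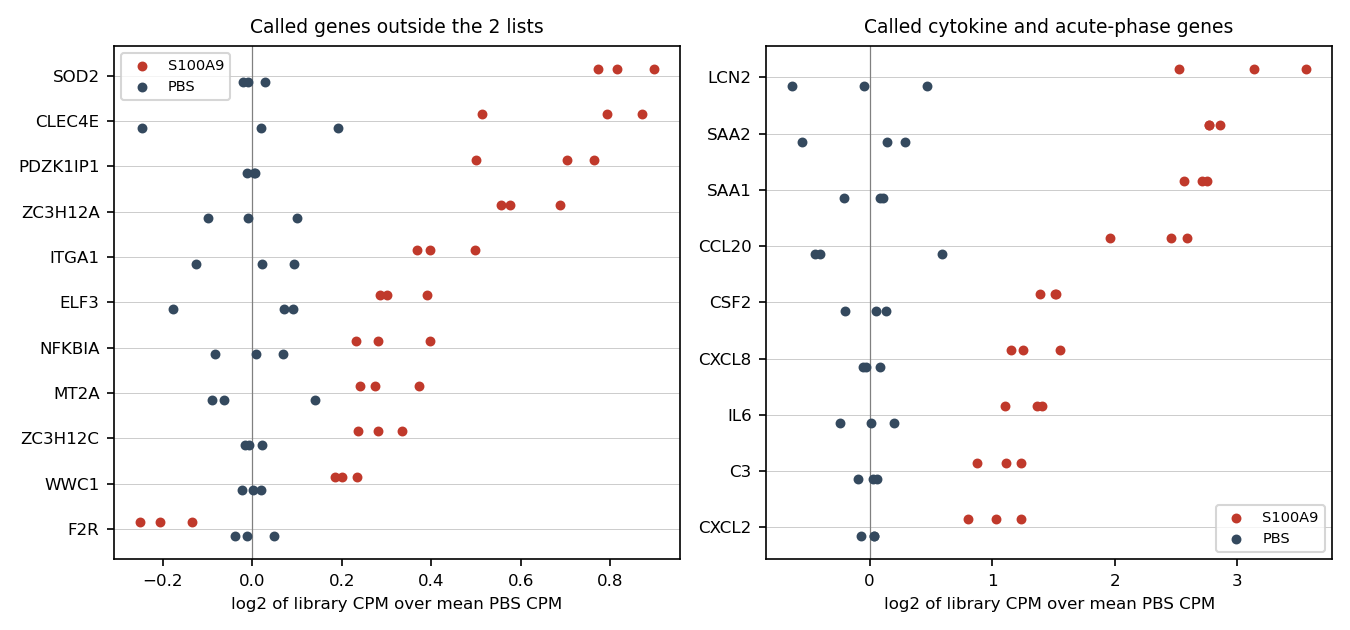
Each point is 1 library, placed by the log2 of its CPM over the mean CPM of the 3 PBS libraries, for the 11 called genes outside (left) and the 9 inside (right) the cytokine and acute-phase lists. S100A9 points sit apart from PBS points in every row, with F2R to the left of them and LCN2 farthest to the right at a log2 fold change of 3.15.

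The called genes were located on GRCh38 by GENCODE release 29. SOD2 (ENSG00000112096) lies at chr6:159669057-159745186 on the minus strand and PDZK1IP1 (ENSG00000162366) at chr1:47183593-47191044 on the minus strand. ITGA1 (ENSG00000213949) lies at chr5:52787896-52959210 and WWC1 (ENSG00000113645) at chr5:168291651-168472303, both on the plus strand. F2R (ENSG00000181104) lies at chr5:76716043-76735781 on the plus strand.

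Promoter sequence was set beside these calls because genes that moved together can be compared for shared letters. The windows were 300 bases from RefSeq (GRCh38.p14), 250 before to 50 after each gene's start, and 16 of the 19 genes called higher had one. A match to the NF-kB decamer consensus on either strand stood in 9 of the 16 windows (56.2%), beside 10.8% of all 27305 promoters. The related motif GGAANTTCC, which can overlap the decamer, stood in CXCL8, CXCL2 and NFKBIA (18.8%), beside 0.967% of all promoters. The AP-1 motif TGANTCA stood in 3 of 16 (18.8%), beside 7.76%, and TTCNNNGAA, a STAT motif, in 2 of 16 (12.5%), beside 7.88%. In the 30 small-shift genes described below, the decamer stood in 1 of 12 windows of the higher genes (SLC11A2, 8.33%) and 1 of 13 windows of the lower genes (ID2, 7.69%). The window of SOD2 held none of these letters. A match is a description of sequence and not of binding.

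The stretches around the matches are printed below, with the match in capitals, since they show how near the start the letters lie and how they vary between genes.
PDZK1IP1: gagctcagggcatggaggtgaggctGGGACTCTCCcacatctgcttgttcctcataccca
ITGA1: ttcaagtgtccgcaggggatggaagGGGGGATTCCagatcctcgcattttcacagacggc
ZC3H12C: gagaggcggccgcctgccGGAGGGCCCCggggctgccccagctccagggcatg
ELF3: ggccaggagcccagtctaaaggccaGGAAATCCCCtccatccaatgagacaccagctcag
NFKBIA: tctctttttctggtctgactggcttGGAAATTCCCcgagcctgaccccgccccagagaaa
IL6: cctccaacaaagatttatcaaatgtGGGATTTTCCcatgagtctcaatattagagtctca
CXCL8: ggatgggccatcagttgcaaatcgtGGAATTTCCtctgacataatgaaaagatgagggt
CCL20: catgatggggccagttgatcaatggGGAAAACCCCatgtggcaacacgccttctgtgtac
LCN2: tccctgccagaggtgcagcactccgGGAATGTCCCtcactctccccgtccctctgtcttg
CXCL2: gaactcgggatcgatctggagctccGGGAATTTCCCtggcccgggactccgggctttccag

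Each is written 5′ to 3′ on the strand of its gene, and distances are from the RefSeq start. For PDZK1IP1, IL6, CCL20, LCN2, CXCL2 and ELF3 the GENCODE gene begins upstream of that start, so that all of the stretch (for CXCL2, most of it) lies inside the GENCODE gene. The stretch of PDZK1IP1 lies at chr1:47190221-47190280 on the minus strand, with its match 219 to 210 bases before the start. The stretch of ITGA1 lies at chr5:52787703-52787762 on the plus strand, with its match 188 to 179 bases before the start. That of NFKBIA lies at chr14:35404796-35404855 on the minus strand (81 to 72 bases before) and that of ELF3 at chr1:202010474-202010533 on the plus strand (88 to 79 bases before). That of ZC3H12C lies at chr11:110093142-110093194 on the plus strand (232 to 223 bases before). The cytokine and acute-phase stretches lie at chr7:22727102-22727161 (IL6), chr4:73740453-73740511 (CXCL8), chr2:227813738-227813797 (CCL20) and chr9:128149253-128149312 (LCN2), all on the plus strand, and at chr4:74099238-74099298 on the minus strand (CXCL2). In 4 of these 5 genes and in NFKBIA and ELF3 the match lay within 100 bases of the start, LCN2 being the exception at 175 bases.

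Beyond the called genes, 844 genes had all 3 S100A9 libraries above all 3 PBS libraries (6.25% of those tested) and 779 had all 3 below (5.77%). For libraries that did not differ, complete separation in either direction would have a probability of 0.1 per gene. Many of these genes would therefore separate without any difference, and separation alone does not show one for a given gene. Their shifts were small. The median log2 fold change was 0.13 among the 844 genes, which is 9.65% higher, and -0.13 among the 779, a change of -8.73%. In the higher direction 142 genes were up to 5% higher, 302 between 5% and 10%, 285 between 10% and 25%, 70 between 25% and 50%, 26 between 50% and 100%, and 19 at 100% or more. The cytokine list and the acute-phase list, with 20 tested genes each, each had 7 members above every control (35.0%, beside 6.25%), and 1 and 3 members below. Of the 844 genes 14 belonged to these lists, and of the 779 genes 4. At an unadjusted p under 0.05 there were 334 of the higher and 269 of the lower genes. By the deposited FPKM values, which the authors scaled for gene length and depth, 521 of the 844 (61.7%) and 474 of the 779 (60.8%) did not overlap in the same direction. The corresponding shares for the other treatments, set against the same PBS libraries, were 4.41% above and 4.13% below for S100A8, and 5.3% above and 5.4% below for S100A8/S100A9.

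The higher genes were drawn more from abundant transcripts. The share of genes above every control was 3.22% under 1 CPM, 4.95% from 1 to 10 CPM, 6.3% from 10 to 100 CPM and 8.6% at 100 CPM or more. The share below every control ran the other way, at 6.7%, 6.11%, 5.76% and 5.06% over the same levels.

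**Figure D2:**
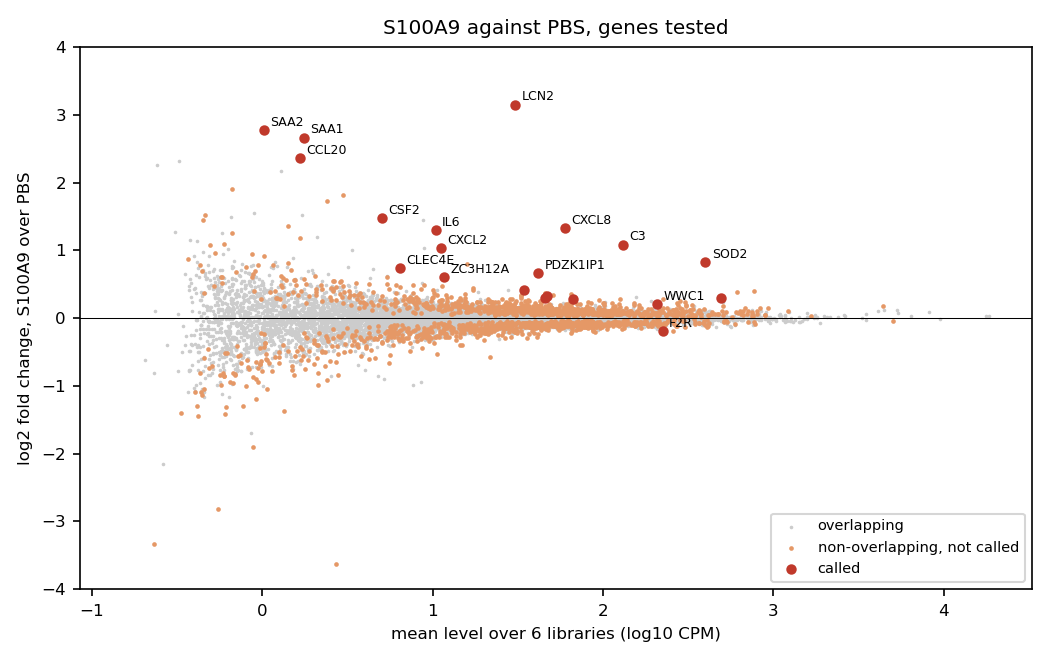
Each point is a gene tested, with its mean level over the 6 libraries (log10 CPM, horizontal) and its log2 fold change of S100A9 over PBS (vertical). Called genes are red, non-overlapping genes that were not called are orange and overlapping genes grey, and 6 genes beyond 4 log2 units, whose levels were near 0 in a group, lie outside the axis. Most orange points lie close to the zero line.

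The 15 genes of smallest p on each side that were not called, with a mean of at least 5 CPM, show what such shifts look like. On the higher side, FTH1, the heavy chain of the iron store ferritin, was at 4795, 4529 and 4631 CPM after S100A9, against 4129, 3842 and 4353 CPM in PBS (log2 fold change 0.18, SE 0.04, adjusted p = 0.074). Replicate 2 was the lowest library on both sides, and with the block the adjusted p was 0.00083. SLC11A2, an iron transporter, was at 116, 128 and 120 CPM after S100A9, against 106, 110 and 108 CPM in PBS (adjusted p = 0.19). MT1E, another metallothionein, was at 128, 139 and 130 CPM after S100A9, against 113, 111 and 120 CPM in PBS (adjusted p = 0.090, and 0.026 with the block). NFE2L1, a factor that drives proteasome genes, was at 336, 376 and 359 CPM after S100A9, against 305, 317 and 316 CPM in PBS (adjusted p = 0.061, and 0.0041 with the block). These 4 genes were each less than 25% higher. FTH1 is not a member of the iron handling list used here. That list had 1 of 21 members above every control (4.76%, beside 6.25%) and 2 below, with a median log2 fold change of -0.01.

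Receptors, kinases and secreted proteins made up others of the 15. NR3C2, the mineralocorticoid receptor, was at 18.1, 21.3 and 19.3 CPM after S100A9, against 14.4, 13.98 and 15.8 CPM in PBS (log2 fold change 0.41, SE 0.09, adjusted p = 0.061, and 0.026 with the block). PIM2, a survival kinase, was at 12.6, 14.4 and 12.7 CPM after S100A9, against 9.04, 8.78 and 10.7 CPM in PBS (log2 fold change 0.48, adjusted p = 0.10, and 0.048 with the block). EPHB2, an ephrin receptor, was at 110, 105 and 112 CPM after S100A9, against 96.8, 90.8 and 93.0 CPM in PBS (adjusted p = 0.074, and 0.0059 with the block). TNC, the matrix protein tenascin C, was at 32.5, 31.4 and 31.8 CPM after S100A9, against 27.02, 26.1 and 25.9 CPM in PBS (adjusted p = 0.18). Its groups were tight, but they overlapped by FPKM. The others were CSTB, a cathepsin inhibitor, DRAM1, a lysosomal protein, TNFAIP2, HDGF, HMGA1, PFDN6 and the ribosomal gene RPS21, at log2 fold changes of 0.15 to 0.28 and adjusted p of 0.074 to 0.18. With the block the adjusted p was 0.0057 for DRAM1, 0.014 for HDGF and 0.029 for TNFAIP2. Against the same controls, TNC also lay above every PBS library after S100A8/S100A9 (log2 fold change 0.23), and RPS21 after S100A8 (0.15). SLC11A2 lay below every PBS library after S100A8/S100A9 (-0.04). The rest of these 15 higher genes overlapped PBS in both other treatments.

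On the lower side, epithelial and matrix genes stood beside metabolic ones. KRT7, a keratin of simple epithelia, was at 89.1, 81.2 and 80.6 CPM after S100A9, against 97.6, 94.7 and 96.1 CPM in PBS (log2 fold change -0.20, SE 0.05, adjusted p = 0.11, and 0.037 with the block). SLC4A4, the basolateral sodium bicarbonate cotransporter of the proximal tubule, was at 31.8, 32.7 and 32.9 CPM after S100A9, against 42.8, 36.4 and 39.8 CPM in PBS (log2 fold change -0.29, SE 0.07, adjusted p = 0.11, and 0.029 with the block). ID2, an inhibitor of basic helix-loop-helix factors, was at 24.7, 22.8 and 24.4 CPM after S100A9, against 29.5, 29.2 and 29.2 CPM in PBS (log2 fold change -0.29, SE 0.07, adjusted p = 0.13). In each the highest treated library lay below the lowest control. FBN1, the microfibril protein fibrillin, was at 394, 380 and 389 CPM after S100A9, against 434, 418 and 429 CPM in PBS (adjusted p = 0.16). LAMA3, a laminin chain of epithelial basement membranes, was at 97.0, 98.1 and 104 CPM after S100A9, against 114, 108 and 113 CPM in PBS (adjusted p = 0.22), and its FPKM values overlapped.

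CYP1A1, the dioxin-inducible monooxygenase, was at 10.0, 8.59 and 7.36 CPM after S100A9, against 14.4, 10.9 and 12.1 CPM in PBS (log2 fold change -0.53, SE 0.13, adjusted p = 0.13, and 0.018 with the block). Its FPKM values overlapped. Its value for S100A8 was -0.33 and for S100A8/S100A9 -0.28, against the same controls. MAP3K14, the kinase of the non-canonical NF-kB pathway, was at 26.3, 24.6 and 26.7 CPM after S100A9, against 31.3, 31.7 and 31.3 CPM in PBS (log2 fold change -0.28, adjusted p = 0.19). IFI44L and DDX60L, both induced by interferon, had log2 fold changes of -0.40 and -0.23 (adjusted p = 0.22 for each), and both overlapped by FPKM. The others were CCDC39, ARHGAP24, ACOX3, DNAJC22, BIVM and EVI5, at -0.19 to -0.67, and their adjusted p lay between 0.15 and 0.31. EVI5 overlapped by FPKM. After S100A8/S100A9, against the same controls, CCDC39 (log2 fold change -0.57), ARHGAP24 (-0.39), FBN1, BIVM, LAMA3, IFI44L and EVI5 also lay below every PBS library. CYP1A1 and ACOX3 did so after S100A8. The rest of these 15 lower genes overlapped PBS in both other treatments. Among abundant genes (mean of at least 100 CPM), MYLK, a myosin kinase, was at 203, 215 and 211 CPM after S100A9, against 231, 238 and 224 CPM in PBS (log2 fold change -0.14, adjusted p = 0.31). NABP1, a single-stranded DNA-binding protein, was at 227, 255 and 241 CPM after S100A9, against 271, 285 and 270 CPM in PBS (log2 fold change -0.20, adjusted p = 0.40), with -0.20 also for S100A8/S100A9.

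**Figure D3:**
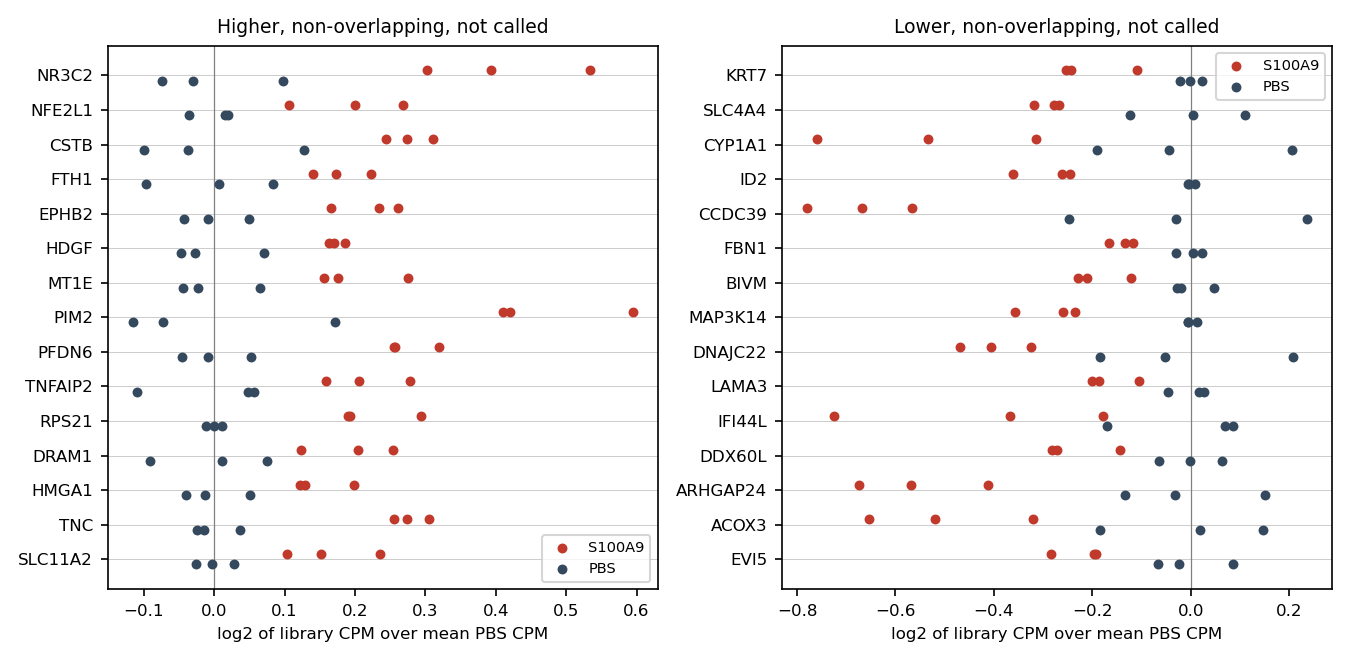
Each point is 1 library, as the log2 of its CPM over the mean PBS CPM, for the 15 higher (left) and 15 lower (right) genes of smallest p that did not overlap and were not called. The S100A9 points lie right of every PBS point in the left panel and left of them in the right panel, with gaps that are often small, as for IFI44L.

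Among the gene lists, cytosolic ribosomal proteins had the highest share above every control. They form the large and small subunits of the ribosome. Of 77 measured, 33 lay above every control (42.9%, beside 6.25% of all genes) and 3 below, and 0 passed the adjusted test, although 25 had an unadjusted p under 0.05. By FPKM 23 of the 77 lay above and 5 below. The median log2 fold change was 0.07 and 60 members were above 0. RPS21 was at 95.6, 89.1 and 88.9 CPM after S100A9, against 78.0, 77.4 and 78.6 CPM in PBS (adjusted p = 0.17). RPL34 was at 122, 123 and 122 CPM after S100A9, against 97.7, 107 and 110 CPM in PBS (adjusted p = 0.20). RPL30 was at 299, 305 and 306 CPM after S100A9, against 261, 280 and 289 CPM in PBS (adjusted p = 0.41). Among those below were RPS15 and RPL18, at log2 fold changes of -0.08 and -0.02.

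The ribosomal shift was small in the sum and was not seen in every library at the same size. Summed over the list, the S100A9 libraries held 34277, 34349 and 33634 CPM, against 32230, 33637 and 33194 CPM in PBS, so that S100A9 replicate 3 lay just below PBS replicate 2. The median over members of the log2 ratio to the PBS mean was 0.08, 0.08 and 0.05 in the S100A9 libraries and -0.03, 0.02 and 0.02 in the PBS libraries. S100A8 replicate 3 reached 0.08 and S100A8/S100A9 replicate 2 reached 0.07, while the other 4 libraries of those treatments lay between -0.02 and 0.01. Of the 77 genes, 2 lay above every control after S100A8 and 0 after S100A8/S100A9.

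Nuclear genes of oxidative phosphorylation, which encode most subunits of the respiratory chain, had 19 of 74 members above every control (25.7%) and 0 below, and 0 passed the adjusted test, with 16 at an unadjusted p under 0.05. By FPKM 17 of the 74 lay above and 0 below. The median log2 fold change was 0.08 and 66 members were above 0. NDUFA11, of complex I, was at 48.1, 44.8 and 45.9 CPM after S100A9, against 37.1, 38.9 and 40.5 CPM in PBS (log2 fold change 0.25, SE 0.07, adjusted p = 0.20). COX5B, of complex IV, was at 47.5, 46.7 and 46.6 CPM after S100A9, against 36.4, 39.5 and 44.3 CPM in PBS (adjusted p = 0.41). NDUFB4 was at 90.1, 87.8 and 86.8 CPM after S100A9, against 71.2, 70.8 and 82.6 CPM in PBS (adjusted p = 0.49). PBS replicate 3 was the highest control for these genes. For both S100A8 and S100A8/S100A9, 5 of the 74 genes lay above every control.

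All 13 mitochondrially encoded genes had a log2 fold change above 0, with a median of 0.10, but only MT-ND3 and MT-ND4L did not overlap. Against the same controls the median was -0.02 for S100A8 and 0.11 for S100A8/S100A9, where 0 and 2 members lay above every control. MT-ND3 was at 925, 898 and 809 CPM after S100A9, against 591, 615 and 790 CPM in PBS (log2 fold change 0.40, SE 0.17, adjusted p = 0.85). PBS replicate 3 stood with the S100A9 libraries rather than with the other controls. These genes summed to 61476, 64828 and 59598 CPM after S100A9, against 56714, 57718 and 62216 CPM in PBS.

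Transcript length moved with both of these lists. Length was read as count over FPKM, which could be done for 96.4% of genes. The median was 677 bases for ribosomal proteins and 768 for nuclear oxidative phosphorylation genes, against 2640 for all genes. Over 5 equal bins of length, from short to long, 11%, 6.02%, 5.41%, 4.99% and 4.37% of genes lay above every control, and 3.61%, 5.22%, 5.33%, 6.83% and 7.83% below. In the shortest bin, 36.4% of the members of these 2 lists lay above every control, and 9.53% of the other 2467 genes did. The median log2 fold change there was 0.08 for the lists and 0.03 for the others. The part of length in these results was not tested.

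**Figure D4:**
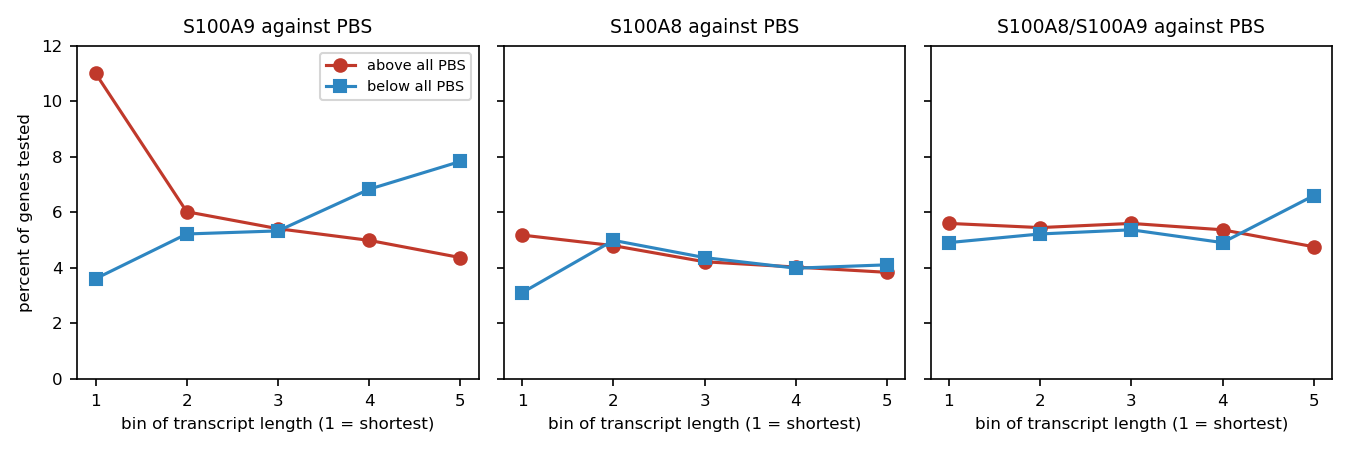
Percent of tested genes with all 3 treated libraries above (red circles) or below (blue squares) all 3 PBS libraries, by 5 equal bins of transcript length (1 the shortest), for S100A9, S100A8 and S100A8/S100A9. For S100A9 the red line runs from 11% in the shortest to 4.37% in the longest bin, and the blue line from 3.61% to 7.83%, while the shares above lie between 3.84% and 5.6% for the other treatments, which use the same PBS libraries.

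Keratins and intermediate filaments leaned lower, with 6 of 17 members below every control (35.3%, beside 5.77%), 1 above and 14 below 0. Beside KRT7, KRT19 was at 204, 194 and 200 CPM after S100A9, against 212, 212 and 213 CPM in PBS (log2 fold change -0.09, adjusted p = 0.82). KRT8, a main keratin of these cells, was at 535, 511 and 522 CPM after S100A9, against 549, 541 and 538 CPM in PBS (log2 fold change -0.06). The rest were KRT80, KRT81 and KRT86, the last pair low, at 0.659 to 2.15 CPM. PLEC, the linker plectin, was the member above. With S100A8 and with S100A8/S100A9, 1 and 0 members of the list lay below every control. Of the 26 members of the tubular injury list, 6 lay below every control (23.1%, beside 5.77%). They were KRT7 and KRT19 again, with CD24, SOX9, PLIN2 and FABP1. LCN2 was the only member of that list above. Against the same controls, SOX9 also lay below after S100A8, as its only member. SOX9 and PLIN2 did so after S100A8/S100A9, where 5 members lay above.

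The list of ID genes with BMP and TGF-beta signalling had 6 of 37 members below every control (16.2%) and 0 above, but 3 below and 2 above by FPKM. ID2 led it, followed by SMURF2, a ubiquitin ligase for the pathway's receptors, at 57.8, 56.5 and 55.3 CPM after S100A9, against 65.2, 61.6 and 58.9 CPM in PBS (log2 fold change -0.13, adjusted p = 0.77). SMAD6, an inhibitory SMAD, and the receptors ACVR1, ACVR2A and TGFBR3 were the others. Junction genes had 7 of 47 below (14.9%) and 1 above, but 4 below and 2 above by FPKM. Against the same controls, 4 lay below and 0 above after S100A8, and 2 below and 4 above after S100A8/S100A9. The cadherin CDH6 was at 42.2, 32.9 and 36.7 CPM after S100A9, against 48.8, 42.8 and 43.5 CPM in PBS (log2 fold change -0.28, adjusted p = 0.41, and 0.019 with the block). The tight-junction scaffold TJP1 was at 248, 265 and 256 CPM after S100A9, against 275, 285 and 273 CPM in PBS (log2 fold change -0.11, adjusted p = 0.64). CLDN1 was the member above, at 1245, 1330 and 1236 CPM after S100A9, against 1196, 1193 and 1161 CPM in PBS.

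Matrix genes had 6 of 37 below (16.2%), with FBN1 and LAMA3 first, and TNC as the 1 above. By FPKM 2 lay below and 0 above. Against the same controls, 3 members lay below and 0 above after S100A8, and 7 below and 4 above after S100A8/S100A9. The fibroblast marker sums given above were lower after S100A9, and their part in the matrix counts was not tested. In fatty acid oxidation and peroxisome genes, 6 of 38 lay below (15.8%) and 1 above. After S100A8, 1 lay below and 0 above, and after S100A8/S100A9, 4 lay below and 1 above. ACOX3, a peroxisomal oxidase, was at 5.97, 6.85 and 5.43 CPM after S100A9, against 7.53, 9.47 and 8.67 CPM in PBS (log2 fold change -0.49, adjusted p = 0.26). CPT1A, ECI2, PPARG and PPARD were also below, and PPARA was the member above.

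Of 31 NF-kB subunits, kinases and inhibitors, 1 passed the adjusted test, NFKBIA. In all 6 lay above every control (19.4%, beside 6.25%) and 3 below (9.68%, beside 5.77%), and by FPKM 3 lay above and 3 below. Above, beside NFKBIA, were the feedback genes TNFAIP3, at 72.9, 75.4 and 74.4 CPM after S100A9, against 68.9, 69.7 and 63.7 CPM in PBS (log2 fold change 0.14, adjusted p = 0.67), and TNIP1, with BCL3, NFKB1 and MAP3K8. Below were MAP3K14, MAP3K7 and TRAF1, with adjusted p of 0.19, 0.78 and 0.55. Of 32 other NF-kB targets, 6 lay above (18.8%) and 2 below (6.25%, beside 5.77%). Those above included the called gene SOD2, described before. IER3, also above, was at 77.9, 80.1 and 76.8 CPM after S100A9, against 65.0, 68.2 and 71.3 CPM in PBS (log2 fold change 0.20, adjusted p = 0.19). The adhesion molecule ICAM1, at a log2 fold change of 0.09, and the inhibitor of apoptosis BIRC3, at 0.24, were also among the 6.

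Metallothioneins and zinc transporters had 4 of 17 above (23.5%) and 0 below: MT2A, MT1E, MT1X and SLC39A1. In both other treatments the count was 0. MT2A was at 487, 488 and 482 CPM after S100A8/S100A9, against 415, 423 and 487 CPM in PBS. Log2 fold changes after S100A8/S100A9 were 0.14 for MT2A, 0.12 for MT1E and 0.07 for MT1X. After S100A8 they were 0.07, 0.07 and 0.08. Set directly against either treatment, S100A9 did not pass at an adjusted p of 0.05 for MT2A, MT1E or MT1X. Metallothionein genes are near-identical in sequence, and reads could be split between them. Antioxidant genes had 5 of 37 above (13.5%), among them the thioredoxin gene TXN at 126, 125 and 126 CPM after S100A9, against 103, 117 and 112 CPM in PBS (log2 fold change 0.18, adjusted p = 0.21), and 1 below, NQO1, at a log2 fold change of -0.13. The p53 and apoptosis list had 6 of 42 above (14.3%), 3 of 42 by FPKM, and 0 below. GDF15 led it at 166, 177 and 181 CPM after S100A9, against 146, 147 and 166 CPM in PBS (adjusted p = 0.21, and 0.025 with the block). Of the same list, 3 lay above and 0 below after S100A8, and 3 above and 3 below after S100A8/S100A9.

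Several lists showed little. Aminoacyl-tRNA synthetases and translation factors had 0 of 51 members apart in either direction, and glycolysis and hypoxia genes had 0 of 38 above and 1 below. Cholesterol and fatty acid synthesis genes had 0 of 39 above and 1 below. The interferon response had 1 of 37 above, ISG15, and 3 below, against 0 and 1 by FPKM. Among other genes named from the lists, CDH6, GDF15, SMURF2, SMAD6, TNFAIP3, TNIP1, NQO1 and PPARA overlapped by FPKM. Mitosis and G2/M genes had 6 of 56 above (10.7%) with a median log2 fold change of 0.01. For the same genes against the same controls, 16 lay above after S100A8 and 15 after S100A8/S100A9, with medians of 0.08 and 0.06.

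**Figure D5:**
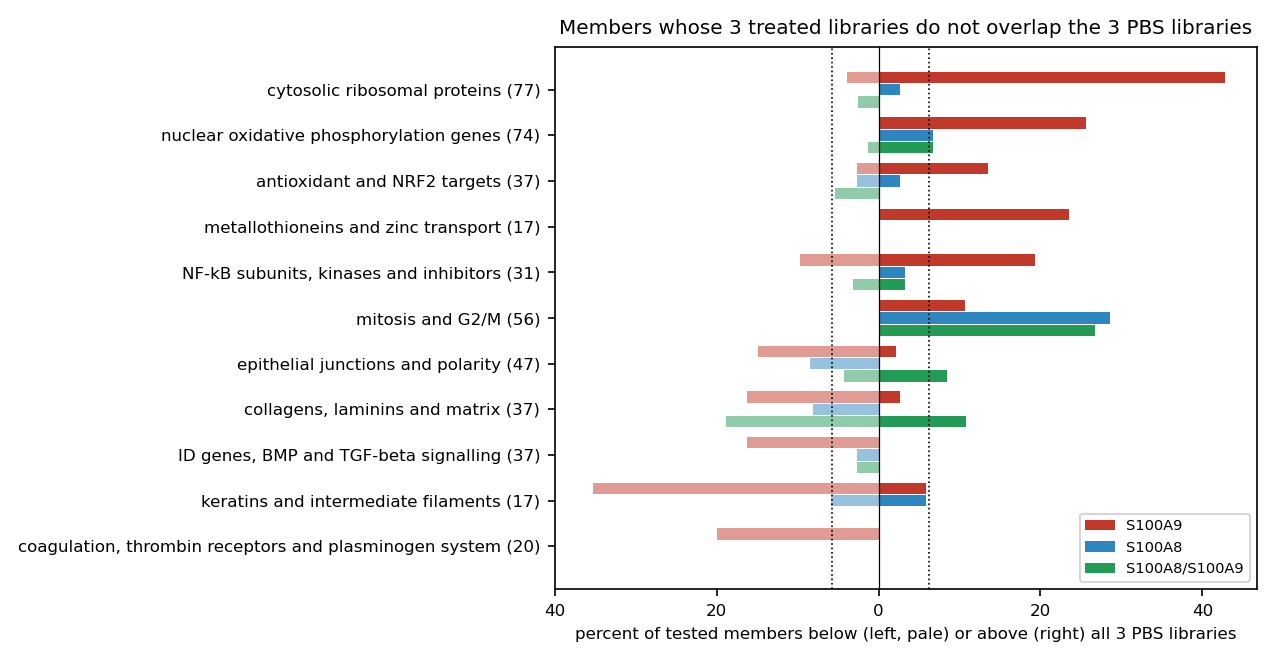
Percent of the tested members of 11 gene lists (number tested in brackets) with all 3 libraries of a treatment above (right, full colour) or below (left, pale) all 3 PBS libraries, for S100A9, S100A8 and S100A8/S100A9. Dotted lines mark 6.25% above and 5.77% below, the shares of all genes for S100A9, and the ribosomal bar reaches 42.9%.

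Set directly against the other treatments, the called genes outside the cytokine and acute-phase lists were partly apart. Of the 11, 8 differed between S100A9 and S100A8 and 6 between S100A9 and S100A8/S100A9 at an adjusted p of 0.05. These genes were selected on the same S100A9 libraries. SOD2 had a log2 difference of 0.81 to each (adjusted p = 3.7e-13 and 3.4e-13), and its own log2 fold change over PBS was 0.02 for both. PDZK1IP1 differed by 0.64 from S100A8 and 0.71 from S100A8/S100A9. ELF3 differed by 0.42 and 0.51. NFKBIA and WWC1 differed from S100A8, by 0.36 and 0.20, but did not pass against S100A8/S100A9, at 0.13 (adjusted p = 0.70) and 0.13 (adjusted p = 0.32). F2R, MT2A and CLEC4E passed against neither, with differences for F2R of -0.17 and -0.17 (adjusted p = 0.11 and 0.095).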

How the data were processed

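RNA was sequenced as poly(A)-enriched libraries, per the labels' protocols. The authors deposited 1 table with a count and an FPKM value per gene and library. These counts, as deposited, are expected counts, since 12.0% of entries were not whole. The deposited FPKM values were scaled by the authors for length and depth, per the file headers. The sources used here do not name an aligner, counter or annotation. Mouse builds (GRCm38, mm10) stand in the submitters' processing notes although the gene IDs are human, so the build behind the counts is not known, and gene positions come from GENCODE release 29. Of 20286 IDs, 20228 were named by a gene table, 50 by GENCODE and 8 had no name. All columns were used.

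Counts were rounded and tested with edgeR 4.0.16 (quasi-likelihood, robust, TMM scaling) in R 4.3.3 on all 12 libraries, 1 coefficient per group. Genes under filterByExpr's minimum count of 10 were left out, which left 13512 and 8 residual degrees of freedom. Two-sided p-values were adjusted over all genes (Benjamini-Hochberg), with 0.05 as the threshold. A gene was called non-overlapping where all 3 treated libraries lay beyond all 3 controls in scaled CPM. This is a description, and an exact permutation test of 3 against 3 cannot go below 0.1. Library totals were 15882193 to 20748334 counts. The procedure was tested on simulated data.

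Deviations from group means correlated between same-numbered S100A9 and PBS libraries at 0.217, 0.412 and 0.131 across genes. Different-numbered S100A9 and PBS libraries lay between -0.301 and 0.113. On this basis the replicate numbers were taken to pair the samples. The block covers all 12 libraries, where same-numbered pairs ran from -0.17 to 0.412 and different-numbered pairs reached 0.273. Only number 2 was positive in every same-numbered pair, so the basis for the block is weak for numbers 1 and 3. The pairing comes from these data and not from the labels. Blocked values are given where they change the call of a gene described. No libraries were duplicates.

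Members and the 52 gene lists were chosen with earlier results of these data known. The text names every called gene, the 15 genes per direction of smallest p that were not called, did not overlap, averaged at least 5 CPM and lay outside the cytokine and acute-phase lists, TLR4, AGER, S100A8 and S100A9, the 5 non-overlapping genes per direction of smallest p at a mean of at least 100 CPM, and up to 3 non-overlapping members per direction of the lists described. Further list members, given as fold changes or by name, and genes added by the blocked fit were chosen after their values were seen. Some members that the rule took are not reported here. Alternatives were the replicate block, DESeq2 size factors and the DESeq2 1.42.0 Wald test, no filter, only the 6 libraries, limma 3.58.1 on log2(FPKM + 1), summed near-identical pairs, and leaving out each library.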

Additional observations from a re-analysis of the deposited data

Results flagged for a closer look

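Among genes called after S100A9 against PBS, the response to S100A9 differed from that to another treatment in 31 direct tests (edgeR's quasi-likelihood test, adjusted over all genes). The PBS libraries cancel in these differences, and the genes were selected on the same S100A9 libraries. S100A9 was higher in each, with all values on the log2 scale.

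S100A9 minus S100A8 was 0.81 for SOD2, 0.64 for PDZK1IP1, 0.47 for ITGA1, 0.49 for ZC3H12A, 0.31 for ZC3H12C, 0.2 for WWC1, 0.42 for ELF3 and 0.36 for NFKBIA. Among the cytokine and acute-phase genes it was 0.94 for IL6, 1.35 for CXCL8, 1.24 for CSF2, 2.5 for SAA1, 3.85 for SAA2, 2.13 for CCL20, 1.12 for C3 and 3.29 for LCN2. SAA2 was at 0.122, 0.058 and 0.174 CPM after S100A8, near a count of 0, and its value for S100A8 over PBS was -1.075.

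S100A9 minus S100A8/S100A9 was 0.81 for SOD2, 0.71 for PDZK1IP1, 0.33 for ITGA1, 0.57 for ZC3H12A, 0.28 for ZC3H12C and 0.51 for ELF3. Among the cytokine and acute-phase genes it was 0.88 for IL6, 1.28 for CXCL8, 1.48 for CSF2, 2.81 for SAA1, 2.62 for SAA2, 3.26 for CCL20, 1.2 for C3, 3.47 for LCN2 and 0.82 for CXCL2. CCL20 was at 0.340, 0.299 and 0.210 CPM after S100A8/S100A9, also low, and its value for S100A8/S100A9 over PBS was -0.897.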

How the results depend on the processing

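The 19 higher calls and 1 lower call became 36 and 6 with the replicate block, 12 and 0 with limma on FPKM, and 16 and 0 on the 6 libraries alone. They became 27 and 3 without the filter and 26 and 2 with the DESeq2 Wald test, and stayed at 19 and 1 with DESeq2 size factors. Leaving out 1 library gave 11 to 20 higher and 0 to 2 lower calls. The cause of these changes was not tested. The count of non-overlapping genes was 844 above and 779 below, 746 and 802 by FPKM, and with the replicate pairing 2181 and 2056 genes had all 3 numbered pairs of one sign, a looser rule by construction. Leaving out 1 library, which also loosens the rule, gave 1402 to 1736 above and 1336 to 1727 below. The median log2 fold change stayed between 0.05 and 0.08 for ribosomal proteins and between 0.06 and 0.09 for nuclear oxidative phosphorylation genes over the alternatives. Signs turned only for uncalled genes among those named by the rule. With limma on FPKM, NPAS2 was at 0.137, CSF1R at 0.05 and ITGB2 at -0.196. With 1 library left out, TLR4 ranged from -0.14 to 0.138, with 0.069 without S100A9 replicate 1 and 0.138 without PBS replicate 3. AGER ranged from -0.214 to 0.175, with -0.214 without S100A9 replicate 2, -0.056 without PBS replicate 2 and -0.025 without PBS replicate 3. At this depth and with 3 libraries a group, 19 of the 844 and 1 of the 779 non-overlapping genes passed the adjusted test.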
